A study of Mus musculus with 12 samples.

Results

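The 9 genes described here mark blood monocytes and their 2 main subsets, and they were taken by symbol from the 46603 Ensembl gene identifiers of the deposited tables. All 9 were found. Cd14, Ly6c2 and Ccr2 mark classical monocytes, Cx3cr1, Nr4a1, Treml4, Fcgr4 and Ace mark nonclassical monocytes, and Csf1r is shared by both. The rule that names them uses no measured value.

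The libraries were made from messenger RNA of blood and spleen of C57/Bl6 mice, either wild type (WT) or knockout (KO) for nuclear myosin 1 (NM1), a nuclear form of the class I myosin Myo1c. All mice were 8 months old. Each of the 4 groups (blood WT, blood KO, spleen WT, spleen KO) had 3 libraries, made from 500 ng of total RNA of submandibular vein blood or of a piece of about 5 mm3 from the spleen tip. The labels do not say whether each library came from a separate mouse, so p-values measure the spread between these libraries, which may in part be technical.

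Monocytes are made in the bone marrow from precursors that need the growth factor receptor Csf1r. Classical monocytes, high in Ly6C, leave the marrow through the chemokine receptor Ccr2 and enter inflamed tissue, where they can become macrophages. In the blood some of them convert into nonclassical monocytes, which are low in Ly6C, patrol the vessel wall through Cx3cr1, and depend on the nuclear receptor Nr4a1 for their development and survival. The spleen holds a reserve of monocytes in its red pulp beside resident red pulp macrophages.

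The libraries fell into 2 kinds that did not follow the tissue labels. Globin took 48.9% to 56.1% of counts in the 6 globin-rich libraries (spleen KO 03, spleen WT 02 and 04, blood WT 01, and blood KO 02 and 03) and 0.846% to 5.90% in the 6 globin-poor ones. Total counts were 9.32 to 12.1 M (M for mega) in the former and 23.1 to 28.2 M in the latter. WT and KO gave 3 libraries to each kind, as did the blood and spleen labels. In globin-poor libraries the red pulp macrophage markers summed to 1014 to 1629 CPM (counts per M counts), and in globin-rich ones to 28.3 to 52.7 CPM. These spleen markers were thus high in the 3 globin-poor libraries labelled blood and low in the 3 globin-rich libraries labelled spleen, which goes against those labels. The kinds were defined from the counts and are not groups of the study. Myo1c, whose gene-level count sums all its forms and so cannot check the loss of NM1, stood between 58.5 and 219 CPM in the WT libraries and between 128 and 199.6 CPM in the KO libraries.

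Levels below are CPM with the 10 globin genes left out of the total unless another scale is named. Chance alone allows up to 3 counts for a gene listed at 0, which is 0.109 to 0.138 CPM in globin-poor libraries and 0.515 to 0.733 CPM in globin-rich ones. Every one of the 9 genes lay above that limit in every library. This limit covers counting error only.

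Ly6c2 and Nr4a1 are shown first by the 250 bases before their start, because Ly6c2 has a close copy, Ly6c1, that moved apart from it, and because Nr4a1 is a stimulus-responsive gene whose window repeats a single motif. The sequences are from RefSeq (GRCm38.p6), and 7 of the 9 genes matched an entry of that table. Capitals in the first pair mark GAGGAAGT, a core of the motif of PU.1, the main transcription factor of myeloid cells. Capitals in the last mark TGCGTCA, a form of the cyclic AMP response element bound by factors of the CREB and ATF families. The RefSeq start of Nr4a1 lies inside its longer GENCODE span. Both motifs were picked with the sequences and results in view and searched on both strands.
Ly6c2 (chr15:75111972-75112221, minus strand): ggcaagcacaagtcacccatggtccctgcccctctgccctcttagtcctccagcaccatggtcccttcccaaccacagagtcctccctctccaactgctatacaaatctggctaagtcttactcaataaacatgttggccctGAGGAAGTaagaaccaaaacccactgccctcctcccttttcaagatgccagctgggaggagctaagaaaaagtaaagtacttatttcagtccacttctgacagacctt
Ly6c1 (chr15:75048838-75049087, minus strand): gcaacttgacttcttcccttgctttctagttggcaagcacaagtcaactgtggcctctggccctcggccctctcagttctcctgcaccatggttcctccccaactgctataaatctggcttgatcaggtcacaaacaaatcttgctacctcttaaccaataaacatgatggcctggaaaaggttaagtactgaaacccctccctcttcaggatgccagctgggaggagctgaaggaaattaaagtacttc
Nr4a1 (chr15:101266596-101266845, plus strand): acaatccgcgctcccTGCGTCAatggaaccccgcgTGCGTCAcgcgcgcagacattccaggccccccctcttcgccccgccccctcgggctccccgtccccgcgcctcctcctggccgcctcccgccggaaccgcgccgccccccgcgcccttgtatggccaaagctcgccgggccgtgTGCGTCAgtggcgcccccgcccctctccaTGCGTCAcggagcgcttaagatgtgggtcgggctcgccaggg
The Ly6c2 window holds 1 GAGGAAGT and the Ly6c1 window 0. Among 32851 windows of the table, 2.44% hold GAGGAAGT, and of the 7 matched genes Fcgr4 and Ly6c2 do. The Ly6c2 and Ly6c1 windows were identical at 57.7% of 284 alignment columns, gaps included. Nr4a1 holds 4 copies of TGCGTCA, which 1.75% of windows hold at least once, and its window was the only one of the 32851 with 3 or more. A match is a description of these letters, not evidence of binding.

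The genes lie on 6 chromosomes of GRCm38 in the GENCODE vM21 annotation. Cd14 (ENSMUSG00000051439) spans chr18:36725067-36726798 on the minus strand, Csf1r (ENSMUSG00000024621) chr18:61100598-61132149 on the plus strand, and Ly6c2 (ENSMUSG00000022584) chr15:75108158-75111970 on the minus strand. Ccr2 (ENSMUSG00000049103) spans chr9:124101950-124113557 on the plus strand and Cx3cr1 (ENSMUSG00000052336) chr9:119901616-120069879 on the minus strand. Nr4a1 (ENSMUSG00000023034) spans chr15:101254269-101274795, Treml4 (ENSMUSG00000051682) chr17:48264295-48275360, Fcgr4 (ENSMUSG00000059089) chr1:171018920-171029761 and Ace (ENSMUSG00000020681) chr11:105967945-105989964, all on the plus strand. Of the 75-base words of Ly6c2 exons, 9.46% also occur in Ly6c1, so its count is uncertain to that extent. Csf1r shares 873 exon bases with Hmgxb3 on the opposite strand, and the strand setting of the counting was not given in the sources used here. Hmgxb3 had 3421 counts over all libraries against 37315 for Csf1r.

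The order of the genes differed between the kinds. Per kb of exon, Csf1r was first and Ly6c2 second in both, at 21.2 ± 8.11 and 18.0 ± 6.14 CPM per kb in globin-rich libraries (SD, n = 6) and 39.6 ± 11.7 and 23.3 ± 5.12 in globin-poor ones. In the globin-rich libraries Ace (12.9 ± 3.38), Nr4a1 (12.0 ± 2.59) and Ccr2 (11.0 ± 4.70) followed, within their spread of each other. Treml4 (7.54 ± 0.85), Fcgr4 (7.17 ± 2.44), Cx3cr1 (5.30 ± 2.00) and Cd14 (3.09 ± 2.38) came after them, again with neighbours inside their spread. In the globin-poor libraries Nr4a1 (20.2 ± 8.93), Cd14 (14.7 ± 6.56), Fcgr4 (12.5 ± 3.07) and Treml4 (10.2 ± 1.80) stood in the middle. Cx3cr1 (5.16 ± 1.63), Ace (3.94 ± 0.92) and Ccr2 (2.11 ± 0.75) closed that order. Ace and Ccr2, last in the globin-poor order, thus stood in places 3 and 5 of the globin-rich one, while Cd14 moved from place 4 to the last.

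Ccr2, the receptor for the chemokine Ccl2, separated the kinds of library most widely of the 9 genes in the fitted difference. In globin-rich libraries it stood at 90.8 CPM in blood WT 01, 62.6 and 60.9 in blood KO 02 and 03, 50.1 and 50.6 in spleen WT 02 and 04, and 132 in spleen KO 03. In globin-poor libraries it stood at 8.50 and 18.0 CPM in blood WT 03 and 04, 9.43 in blood KO 04, 15.9 in spleen WT 01, and 12.2 and 21.4 in spleen KO 01 and 04. The 2 kinds did not overlap, and the means of 74.4 ± 31.8 and 14.2 ± 5.07 CPM (SD, n = 6) differed 5.23-fold.

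Ace, the angiotensin-converting enzyme, which nonclassical monocytes carry in the mouse and which endothelium also makes, showed the same division. Its globin-rich libraries stood at 65.5 (blood WT 01), 59.4 and 93.7 (blood KO 02 and 03), 59.2 and 45.4 (spleen WT 02 and 04) and 84.5 CPM (spleen KO 03). Its globin-poor libraries stood at 14.6 and 23.6 (blood WT 03 and 04), 17.9 (blood KO 04), 26.9 (spleen WT 01) and 17.4 and 24.7 CPM (spleen KO 01 and 04). Every globin-rich library lay above every globin-poor one, with a 3.26-fold difference between the means.

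Cd14, the co-receptor for bacterial lipopolysaccharide, went the other way. It stood at 5.49 (blood WT 01), 4.65 and 1.31 (blood KO 02 and 03), 5.44 and 2.20 (spleen WT 02 and 04) and 12.98 CPM (spleen KO 03) in globin-rich libraries. In globin-poor libraries it stood at 35.0 and 25.1 (blood WT 03 and 04), 15.0 (blood KO 04), 42.2 (spleen WT 01) and 13.02 and 22.1 CPM (spleen KO 01 and 04). The globin-rich mean of 5.35 ± 4.12 CPM was 4.75-fold below the globin-poor mean of 25.4 ± 11.4 CPM, but the highest globin-rich and the lowest globin-poor library nearly touched. The globin-rich values rest on 7 to 71 counts.

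The other 6 genes overlapped between the kinds on this scale. Csf1r ranged from 83.3 to 208 CPM in the globin-rich libraries and from 147 to 301 CPM in the globin-poor ones. Ly6c2, a surface antigen of classical monocytes, ranged from 30.5 to 75.1 and from 43.6 to 78.3 CPM, and Cx3cr1, the fractalkine receptor, from 12.95 to 39.5 and from 16.97 to 34.6 CPM. Nr4a1 ranged from 32.0 to 55.4 and from 41.2 to 132 CPM. Treml4, a receptor of the TREM family, ranged from 12.7 to 17.6 and from 16.0 to 25.1 CPM. Fcgr4, an activating Fc receptor for IgG, ranged from 4.13 to 13.3 and from 10.7 to 21.3 CPM. Only 3.49% of 14538 genes averaging 1 CPM or more were higher in all 6 globin-rich libraries, and 49.8% were lower in all 6. Ccr2 and Ace were among the former and Cd14 among the latter.

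**Figure D1:**
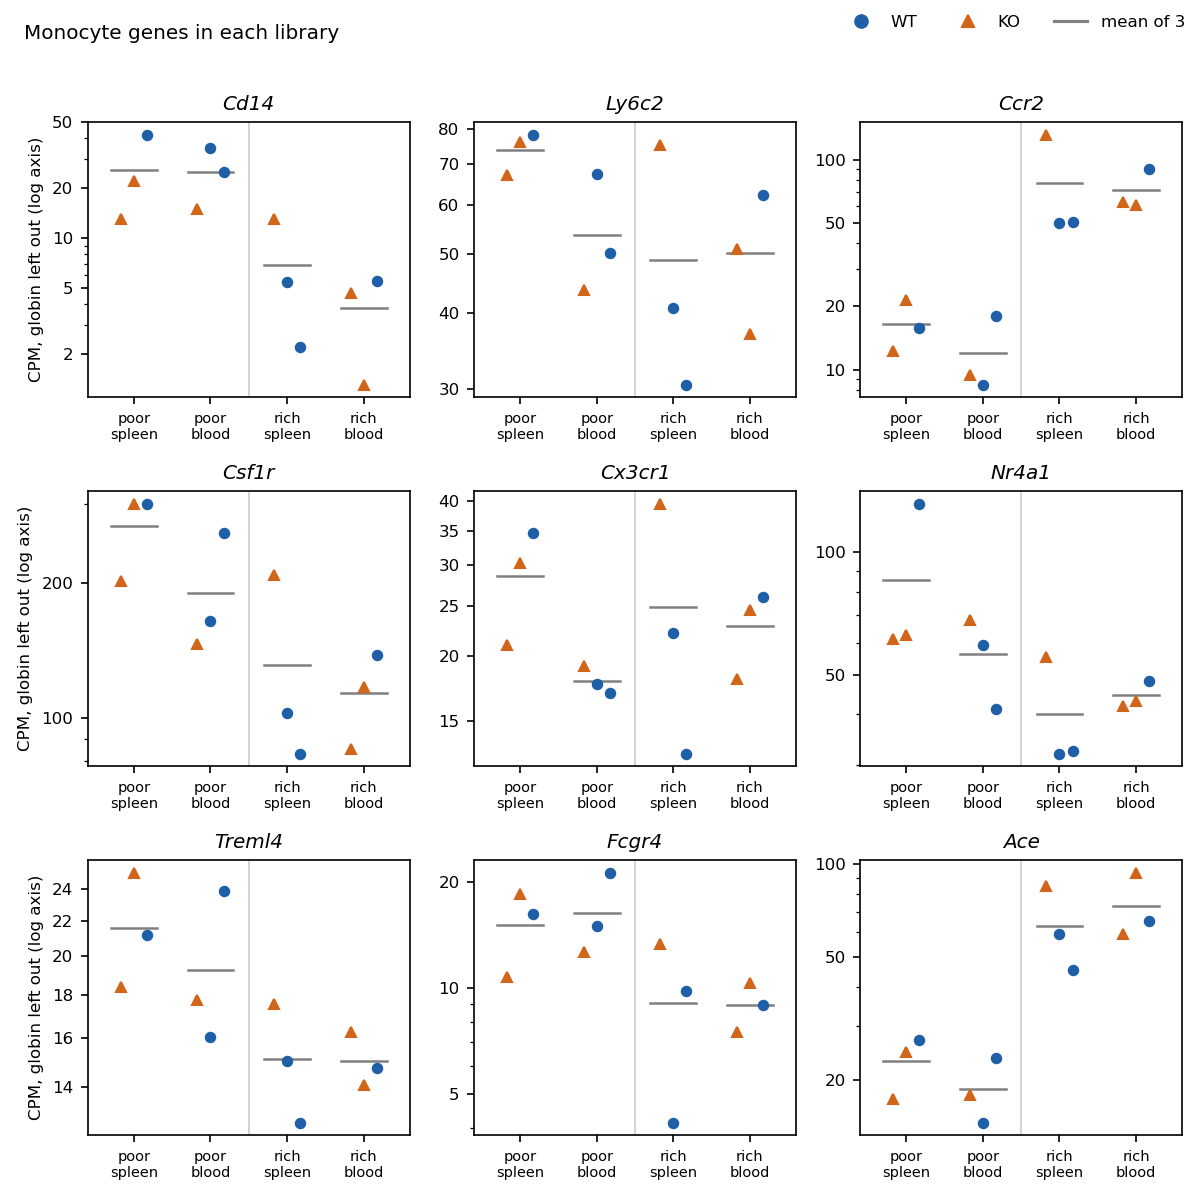
CPM with globin left out (log axis) of each of the 9 genes in each library, by kind of library and tissue label; circles are WT, triangles KO, and bars the mean of 3 libraries. Ccr2 and Ace stand higher in every globin-rich library than in any globin-poor one, and Cd14 lower. For Cd14 this does not hold in TMM-scaled CPM.

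A fit of all 12 libraries with genotype and tissue label as covariates tested the difference between the kinds. It used edgeR's quasi-likelihood test with Benjamini-Hochberg adjustment, and called 54.2% of 14730 genes, 24% higher and 30.2% lower in globin-rich libraries. Of the 9 genes, 5 were called higher and 1 lower, and the members' median log2 fold change was 0.69 against -0.11 over all genes tested. The log2 fold change was 3.47 ± 0.22 (SE) for Ccr2 (adjusted p = 3.86e-08) and 2.84 ± 0.21 for Ace (adjusted p = 1.25e-07). Cx3cr1 (1.17 ± 0.20), Ly6c2 (0.72 ± 0.16) and Treml4 (0.69 ± 0.17) were also called higher, with adjusted p-values of 0.000283, 0.00147 and 0.00315. Cd14 was called lower at -1.13 ± 0.39 (adjusted p = 0.0257), but not without the library blood WT 01 (-1.06, edgeR adjusted p = 0.0639) or blood WT 03 (-0.98, edgeR adjusted p = 0.0520). Nr4a1 (0.39 ± 0.21), Fcgr4 (0.31 ± 0.26) and Csf1r (0.22 ± 0.19) did not pass, with adjusted p-values of 0.125, 0.319 and 0.354.

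These fold changes hang on the scaling, since the trimmed mean of M-values (TMM) sets most genes level while CPM without globin does not. With library size without globin in place of TMM the median of all genes moved from -0.11 to -1.21, and the calls moved from 44.2% to 8.43% higher. Ly6c2, Csf1r, Nr4a1, Treml4 and Fcgr4 then had log2 fold changes of -0.35, -0.89, -0.72, -0.44 and -0.81, and Cx3cr1 was not called at 0.06. Relative to the median of all genes the values hardly differed: 3.58 and 3.59 for Ccr2, 2.95 and 2.90 for Ace, 0.33 and 0.32 for Csf1r, and -1.02 and -0.98 for Cd14, with TMM and without. Ccr2 and Ace were called higher, and Cd14 lower, under both scalings. In TMM-scaled CPM, though, Cd14 overlapped between the kinds. Globin-rich spleen KO 03 stood at 16.3 CPM and globin-poor spleen KO 01 at 9.90 CPM. With no filter on low counts Ly6c2 (0.40) and Treml4 (0.37) were not called by edgeR, with adjusted p-values of 0.123 and 0.221. The median of all genes was then 0.62. Relative to it Ccr2 (2.54), Ace (1.91) and Cx3cr1 (0.23) stayed above. Ly6c2 (-0.22), Treml4 (-0.25), Nr4a1 (-0.55), Fcgr4 (-0.61), Csf1r (-0.71) and Cd14 (-2.07) lay below.

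A pair of further fits, chosen after seeing the data, split the libraries by whether their markers went with their labels. Within each fit the tissue label and the kind cannot be told apart. With 3 globin-rich libraries labelled blood against 3 globin-poor ones labelled spleen, where 38.8% of genes were called, Ccr2 (3.17 ± 0.24), Ace (2.77 ± 0.31), Cx3cr1 (0.78 ± 0.26) and Ly6c2 (0.47 ± 0.16) were called higher and Cd14 (-1.67 ± 0.39) lower. In that fit Treml4 was not called (0.54 ± 0.23, adjusted p = 0.0869 by edgeR), and Csf1r stood at -0.15 ± 0.24. With the other 6 libraries, those whose markers go against their labels, where 40.1% of genes were called, Ccr2 (3.78 ± 0.32), Ace (2.94 ± 0.24), Cx3cr1 (1.58 ± 0.28), Ly6c2 (0.99 ± 0.26), Treml4 (0.86 ± 0.27) and Nr4a1 (0.67 ± 0.23) were called higher. Cd14 was not called there (-0.76 ± 0.47, adjusted p = 0.228 by edgeR). Ccr2 and Ace were called higher in both fits. Each stood higher in every globin-rich library than in any globin-poor one, so any such split gives that direction. Both fits also reuse libraries of the main fit, so their calls for Ccr2 and Ace are not separate evidence. The difference between the fits was not tested.

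**Figure D2:**
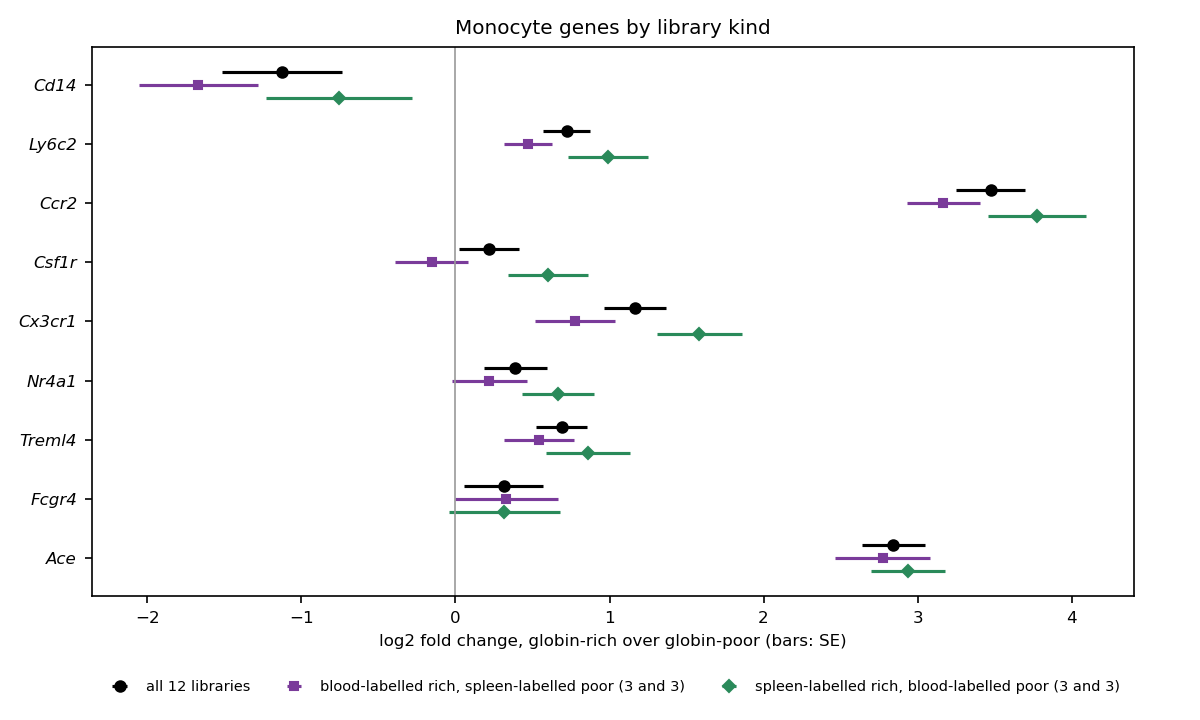
Log2 fold change of globin-rich over globin-poor libraries for each gene, with its SE, in the fit of all 12 libraries (circles) and in the 2 fits split by tissue label (squares and diamonds, 3 against 3 libraries). Ccr2 and Ace lie between 2.77 and 3.78 in each fit, Cd14 lies below 0, and Csf1r changes sign.

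Ratios of 2 genes within a library do not depend on scaling. Ccr2 over Csf1r, a ratio of a classical gene to the gene of all monocytes, was 0.416 to 0.628 in globin-rich and 0.0442 to 0.0609 in globin-poor libraries, per kb of exon. Ace over Treml4, both nonclassical, was 1.35 to 2.51 against 0.344 to 0.479. Ly6c2 over its copy Ly6c1 was 3.28 to 5.70 against 0.970 to 1.32. Cd14 over Csf1r was 0.0374 to 0.208 against 0.215 to 0.710. None of these 4 ratios overlapped between the kinds. Each holds a gene that did not overlap by itself in CPM without globin (Ccr2, Ace, Ly6c1 and Cd14), so they are not separate evidence. The share of other gene pairs without overlap was not computed. Ly6c2 over Treml4 (1.75 to 3.12 against 1.53 to 3.07), classical over nonclassical, and Fcgr4 over Treml4 (0.438 to 1.22 against 0.927 to 1.49), both nonclassical, did overlap, as did Treml4 over Cx3cr1 (1.00 to 2.21 against 1.38 to 3.17) and Ly6c2 over Cx3cr1 (2.47 to 4.62 against 3.72 to 6.29). Ccr2 over Cx3cr1, also classical over nonclassical, did not overlap, at 1.503 to 2.60 against 0.306 to 0.707. Of the 3 ratios between nonclassical genes, Ace over Treml4 alone separated the kinds.

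**Figure D3:**
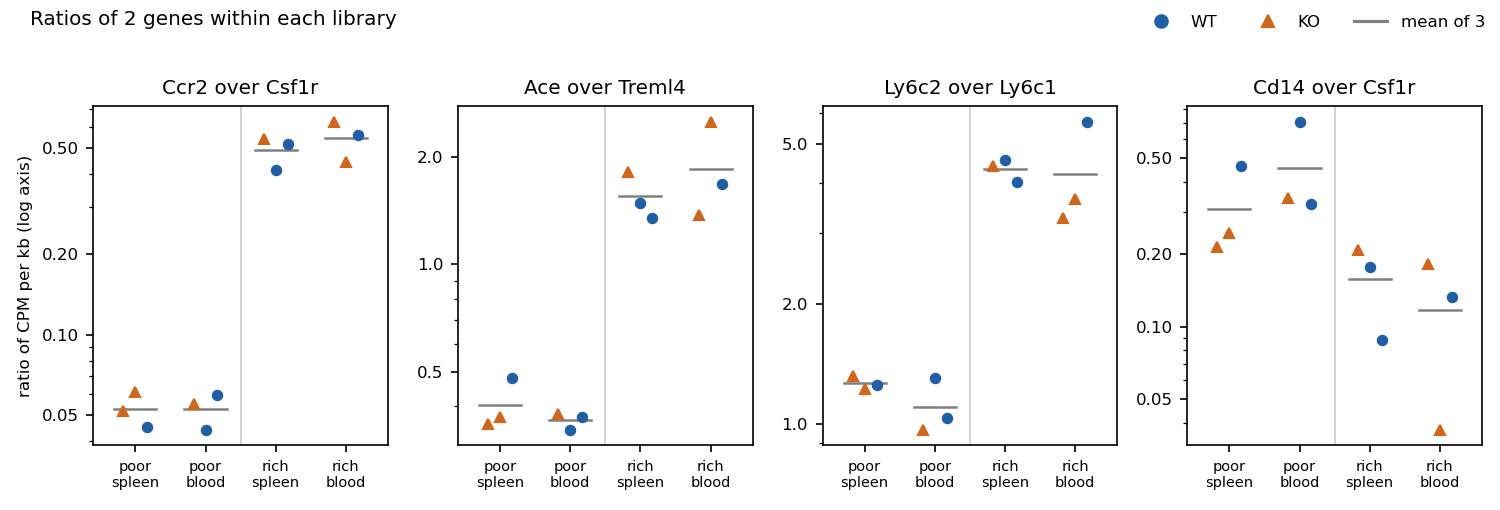
Within-library ratios of CPM per kb (log axis) for 4 pairs of genes, by kind of library and tissue label; circles are WT, triangles KO, and bars the mean of 3 libraries. Ccr2 over Csf1r is 0.416 or more in globin-rich and 0.0609 or less in globin-poor libraries.

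Other genes of the 2 subsets were mostly higher in globin-rich libraries in the same edgeR fit, which was scaled with TMM. Summed in CPM without globin, both lists overlapped between the kinds. The nonclassical list spanned 833 to 1758 where globin was rich, against 954 to 1653 where it was poor. For the classical list these spans were 1977 to 4713 and 1140 to 2710. Other scalings of the fit were not followed for these lists. Of 13 other classical genes 12 were called higher and 1 lower, with a median log2 fold change of 1.65. F13a1, the A chain of clotting factor XIII (5.63 ± 0.23), the integrin Itgam (3.24 ± 0.20), Ms4a6c (1.29 ± 0.17) and lysozyme, Lyz2 (1.47 ± 0.21), were among the 12, and Ly6c1 (-1.11 ± 0.16), which endothelium also makes, was the 1 lower. F13a1 is also abundant in platelets, whose 7 markers were all called higher. Of 13 other nonclassical genes 8 were called higher and 1 lower, with a median of 0.75. Itgal (2.02 ± 0.20), the sphingosine phosphate receptor S1pr5 (3.79 ± 0.38), Klf2 (1.35 ± 0.16) and Ear2 (1.71 ± 0.26) were higher, and Itgax, a dendritic cell gene as well (-0.74 ± 0.18), was the 1 lower. S1pr5 and Itgal are also natural killer cell genes, and 6 of 7 natural killer markers were called higher.

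Of 10 regulators of the lineage 6 were called higher and 3 lower in that TMM-scaled fit. Their sum in CPM without globin instead lay lower where globin was rich, though with overlap. It spanned 324 to 875 there, against 611 to 1328 where globin was poor. Klf4, needed for monocyte differentiation (1.82 ± 0.17), the receptor chain Csf2ra (1.47 ± 0.20) and Runx1 (0.89 ± 0.13) were higher, while Bhlhe40 (-1.43 ± 0.22) was lower. Irf8, a factor of monocytes, dendritic cells and B cells with the highest mean of the list, was lower at -0.57 ± 0.21 (adjusted p = 0.0305), and Spi1, which encodes PU.1, was higher at 0.69 ± 0.22 (adjusted p = 0.0176).

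Of 13 ligands and partners of the 9 genes, 8 were abundant enough to test, and 2 were called higher and 3 lower, beside 24% and 30.2% of all genes. The adaptors Fcer1g (1.34 ± 0.21), which Fcgr4 signals through, and Tyrobp (1.32 ± 0.26) were higher. Both ligands of Csf1r were lower: Csf1 stood at 44.8 to 93.0 CPM where globin was poor and at 3.91 to 23.6 CPM where it was rich (-1.57 ± 0.27), and Il34 at 8.98 to 20.6 and 0 to 3.26 CPM (-3.40 ± 0.61). The ligand of Cx3cr1, Cx3cl1, was the other gene called lower (-2.92 ± 0.78) and is named beyond the naming rule, after its value was seen. The Ccr2 ligands Ccl2, Ccl7 and Ccl12 were too low to test, at 2.00 CPM or less in every library.

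Markers of other cells moved between the kinds as well, in the fit that called 24% of all genes higher and 30.2% lower. Of 10 red pulp macrophage markers 9 were called lower, with a median of -4.48, and C1qa and Vcam1 were at 0 in some globin-rich libraries. The sum of neutrophil markers was 517 to 959 CPM in globin-poor libraries and 898 to 5038 CPM in globin-rich ones, with 7 of 11 called higher and 3 lower. Natural killer markers summed to 47.8 to 104 CPM in globin-poor and 77.0 to 144 CPM in globin-rich libraries. Dendritic cell markers summed to 100.1 to 189 CPM in globin-poor and 16.9 to 39.5 CPM in globin-rich libraries. Red pulp macrophages, dendritic cells, natural killer cells, neutrophils and endothelium each express some of the 9 genes. The part of these cells in the differences was not tested. In such bulk samples fewer cells of a type and less RNA per cell cannot be told apart.

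**Figure D4:**
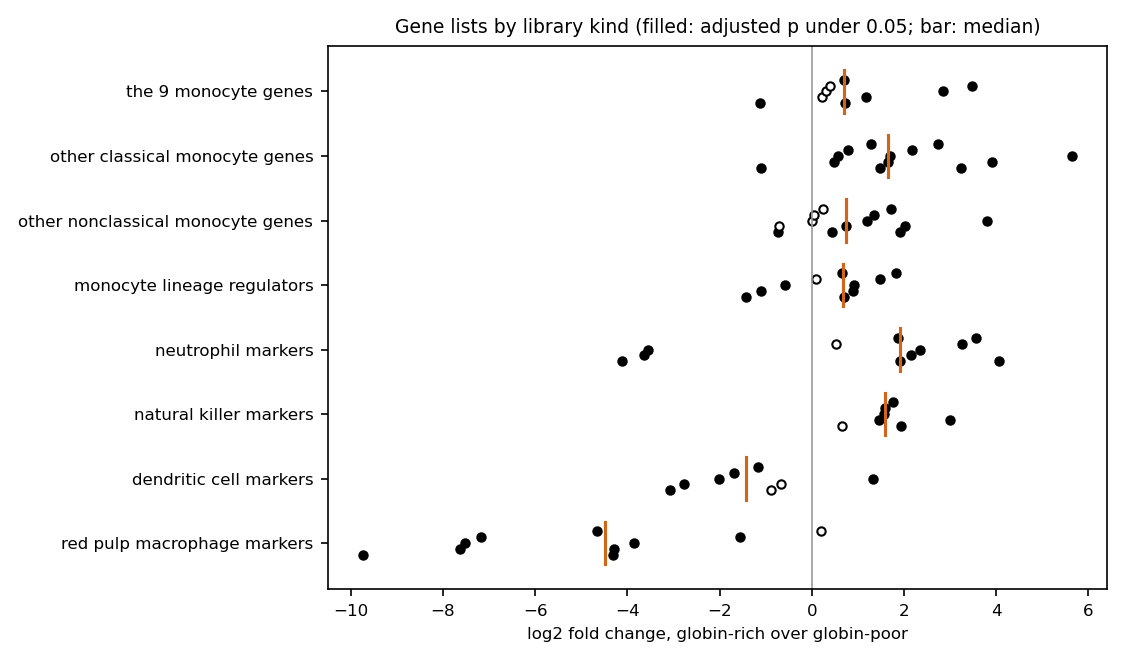
Log2 fold change of globin-rich over globin-poor libraries for every tested gene of 8 lists; filled points have an adjusted p under 0.05 (edgeR) and bars mark the list median. With TMM scaling the median is 0.69 for the 9 monocyte genes, 1.65 for other classical genes and -4.48 for red pulp macrophage markers.

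The genotype comparison asked whether monocyte genes differ without NM1. Within the globin-poor libraries edgeR called 0% of 16422 genes (138 had an unadjusted p below 0.05), and DESeq2 called 5 genes. Cd14 was the member with the smallest p: WT stood at 35.0, 25.1 and 42.2 CPM (blood WT 03, blood WT 04, spleen WT 01) and KO at 15.0, 13.02 and 22.1 CPM (blood KO 04, spleen KO 01, spleen KO 04). The genotypes did not overlap, and the WT mean of 34.1 ± 8.59 CPM was 2.04 times the KO mean of 16.7 ± 4.77 CPM (SD, n = 3). The log2 fold change of -1.05 ± 0.25 had an unadjusted p of 0.00394 and did not pass adjustment (edgeR adjusted p = 1.00). Of 14538 genes, 0.908% were lower in all 3 globin-poor KO libraries, Cd14 the 1 member among them, and 2.12% were higher in all 3, with no member. Red pulp macrophage markers summed to 1430 to 1584 CPM in these WT libraries against 1014 to 1629 CPM in the KO ones, and neutrophil markers to 673 to 959 against 517 to 897 CPM. Both sums overlapped between the genotypes, yet all 10 red pulp macrophage markers (median log2 fold change -0.33) and all 11 neutrophil markers (median -0.20) lay below 0, none of them called. The part of these cells in the Cd14 values was not tested.

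The other 8 genes had globin-poor log2 fold changes between -0.36 ± 0.25 (Fcgr4) and 0.03 ± 0.26 (Cx3cr1), with overlapping genotypes. Csf1r stood at -0.18 ± 0.26, Nr4a1 at -0.23 ± 0.36, Ace at -0.12 ± 0.22, Ly6c2 at -0.10 ± 0.22, Treml4 at -0.02 ± 0.20 and Ccr2 at -0.01 ± 0.33. Of the 9 genes 8 lay below 0, with a median of -0.12, while 49.3% of all genes lay above 0 and their median was 0.00. The 10 regulators of the lineage all lay below 0 as well (median -0.22), as did 7 of 8 dendritic cell markers (median -0.27).

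Within the globin-rich libraries edgeR called 0% of 11728 genes (799 had an unadjusted p below 0.05), and DESeq2 called 31 genes. Without the library blood KO 02 edgeR called 483 genes, and Treml4, Ace and Fcgr4 were not among them. The 9 genes lay between -0.18 ± 0.26 (Treml4) and 0.18 ± 0.29 (Ace), and adjusted p-values were 0.852 or more by edgeR. Cd14 stood at 0.10 ± 0.65, with WT at 5.49, 5.44 and 2.20 CPM and KO at 4.65, 1.31 and 12.98 CPM. The genotypes overlapped for all 9 genes, while 7.43% of 14538 genes were higher and 4.73% lower in all 3 KO libraries. Before TMM scaling the library spleen KO 03 was the highest globin-rich library for 8 of the 9 genes, all but Ace, and for 33.6% of 14538 genes. After TMM scaling it was the highest for 5 of the 9 (Cd14, Ly6c2, Ccr2, Csf1r and Cx3cr1) and for 31.7% of genes. This library also had the highest neutrophil sum (5038 CPM against 898 to 1658 CPM in the other 5), and the part of that in its monocyte values was not tested.

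**Figure D5:**
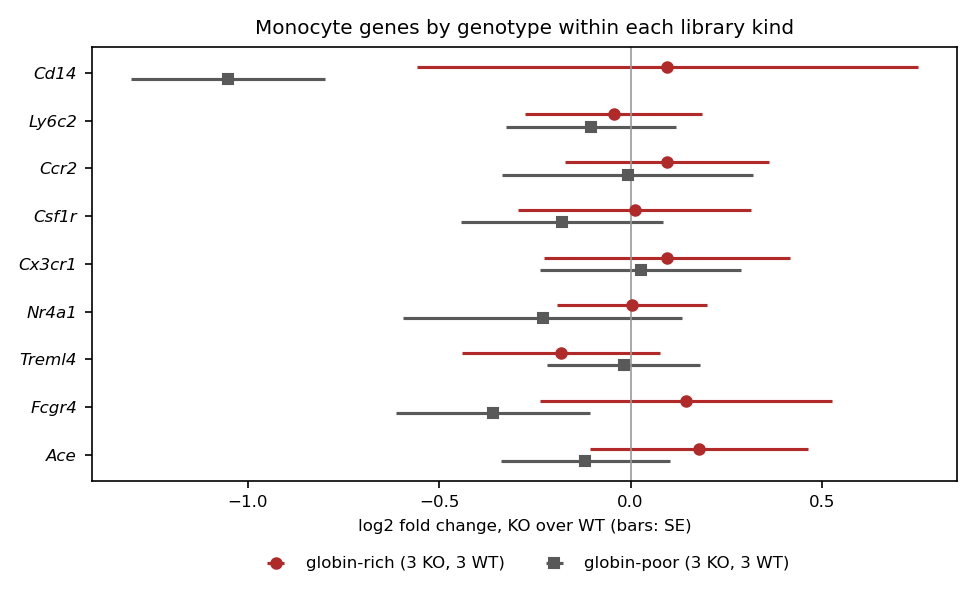
Log2 fold change of KO over WT for each gene, with its SE, within globin-rich (circles) and globin-poor libraries (squares), 3 against 3 in each. Cd14 in globin-poor libraries stands at -1.05, and the other values lie between -0.36 and 0.18.

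The difference between those KO effects, globin-rich minus globin-poor, was tested in a fit of all 12 libraries. It called 0% of 16858 genes by edgeR (1326 had an unadjusted p below 0.05) and 69 by DESeq2. All 9 monocyte genes lay above 0, with a median of 0.46, beside 48.2% of all genes above 0 and a median of -0.03. Natural killer (7 of 7 above 0, median 0.72) and T cell markers (7 of 7, 0.60) lay the same way. So did neutrophil (9 of 11, 1.12) and dendritic cell markers (6 of 8, 0.21). Red pulp macrophage (4 of 10, -1.74), endothelial (1 of 8, -1.19) and erythroid markers (0 of 6, -1.40) lay mostly below 0. Plasma cell (1 of 6, -0.41) and platelet markers (1 of 7, -0.25) did too. Of the 9 genes Cd14 had the largest difference at 1.49 ± 0.69 (unadjusted p = 0.0491, edgeR adjusted p = 0.633). It was 0.41 without the library spleen KO 03 and 1.88 without blood KO 04. It was followed by Fcgr4 (0.65 ± 0.54) and Csf1r (0.57 ± 0.40). No member passed, so a difference in the KO effect between the kinds was not shown.

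Under the tissue labels as given, each genotype mixed both kinds. In the libraries labelled blood (WT 01, 03, 04 and KO 02, 03, 04) the 3 WT libraries had 90.8, 8.50 and 18.0 CPM of Ccr2 and the 3 KO libraries 62.6, 60.9 and 9.43 CPM. The high values were the globin-rich libraries in both genotypes. In blood 0% of 14939 genes and in spleen 0% of 15362 were called by edgeR, and 24 and 370 had an unadjusted p below 0.05. DESeq2 called 0 in both. In blood Cd14 had a log2 fold change of -1.37 ± 0.73 and Ace of 1.19 ± 1.04. With 1 library left out Cd14 ranged from -2.11 (without KO 04) to -0.87 (without WT 03) and Ace from 0.30 (without KO 03) to 2.51 (without WT 01). In spleen Nr4a1 stood at -0.52 ± 0.29, Treml4 at -0.47 ± 0.40 and Ace at -0.79 ± 1.02. There Ace ranged from -2.34 (without KO 03) to -0.21 (without WT 02) and Treml4 from -0.76 (without WT 01) to -0.14 (without WT 02). All adjusted p-values of the 9 genes were 0.989 or more by edgeR.

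Nr4a1, which cells switch on within minutes of a stimulus, varied mostly through 1 library in CPM without globin. Among libraries labelled spleen the WT values (01, 02, 04) were 132, 32.0 and 32.5 CPM and the KO values (01, 03, 04) 61.4, 55.4 and 62.8 CPM. Among those labelled blood the WT values were 48.4, 59.2 and 41.2 CPM and the KO values 41.8, 43.2 and 68.1 CPM. Spleen WT 01 stood above every other library, and it also had the highest sum of 12 immediate-early genes, 702 CPM against 219 to 644 CPM in the others. Without it the difference between the kinds was called for Nr4a1 (0.64, edgeR adjusted p = 0.00532). In the fit between kinds 3 of the 12 immediate-early genes were called higher and 4 lower, beside 24% and 30.2% of all genes. Egr1 (-1.999 ± 0.303), Egr2 (-3.13 ± 0.55) and Nr4a3 (-2.49 ± 0.59) were among the lower and Fos (2.69 ± 0.23) among the higher. Nr4a1 lay between these named values. Egr2 and Nr4a3 were too low to test within the globin-rich libraries.

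Blood and spleen labels were also compared within each kind. In globin-rich libraries edgeR called 1 gene of 11728 (0.00853%), not a member, and 1365 had an unadjusted p below 0.05. All 9 genes lay below 0 there, with a median of -0.27 against 0.03 over all genes, from -1.06 ± 0.60 for Cd14 to -0.07 ± 0.31 for Ace, while 52.3% of all genes lay above 0. Cd14 stood at -0.13 without spleen KO 03 and at -1.92 without blood WT 01. All 9 tested neutrophil markers (median -1.17) and all 7 platelet markers (median -1.20) lay below 0 too, and their part in the monocyte values was not tested. In globin-poor libraries edgeR called 6 genes of 16422 (0.0365%), again no member, while DESeq2 called 2829 genes and edgeR 645 without blood KO 04 and 2349 without spleen KO 01. Cx3cr1 was the only member whose globin-poor values did not overlap between the labels. It stood at 17.6, 16.97 and 19.1 CPM under the blood label (WT 03, WT 04, KO 04) and at 34.6, 21.0 and 30.3 CPM under the spleen label (WT 01, KO 01, KO 04). Of 14538 genes 26.3% were likewise lower in all 3 libraries labelled blood and 9.44% higher, and the log2 fold change of -0.44 ± 0.21 did not pass (edgeR adjusted p = 0.192) and was -0.15 without spleen WT 01.

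Once the mean of each kind was removed, the members varied together to unequal degrees. Pearson correlations of log2(CPM + 0.5) over the 12 libraries were highest for Ccr2 with Csf1r (r = 0.92) and Csf1r with Cx3cr1 (r = 0.84), and lowest for Nr4a1 with Treml4 (r = 0.11). The libraries share their depth and composition across all genes, so these values are descriptions. Among 10239 genes averaging 5 CPM or more, the calcium channel gene Trpm2 was most like both Ccr2 and Csf1r (r = 0.97 for each), and Xdh was next for Ccr2 (r = 0.96). Scamp2 was most like Ly6c2 (r = 0.95), Pisd most like Cx3cr1 (r = 0.95) and Fkbp5 most like Treml4 (r = 0.93). Nr4a1 was most like Rrad (r = 0.91), with the stress-induced factor Atf3 in place 3 (r = 0.88). Cd14 was most like Renbp and next Lyz1, a lysozyme gene (r = 0.90 and 0.89), Fcgr4 most like Etfbkmt (r = 0.90), and Ace most like Rmnd1, with Csf1, the ligand of Csf1r, in place 3 (r = 0.88 and 0.86).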

How the data were processed

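Raw counts per gene were deposited by the authors, 1 table per library. Per the submitters' processing notes, the tools were HTSeq, HISAT2 2.0.4, SAMtools 0.1.19, Trimmomatic 0.36 and FastQC, and the builds mm10 and GRCm38. Which annotation was counted, and whether by strand, is not given in the sources used here. GENCODE vM21 held 46005 of the 46603 identifiers and gave symbols and exon lengths. No pair of the 12 libraries agreed within counting noise (smallest chi-square per degree of freedom 7.17). Libraries with over 25% of counts in globin were called globin-rich, so that their monocyte genes rest on fewer counts.

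Counts were filtered with filterByExpr, scaled with TMM and tested by edgeR 4.0.16 (quasi-likelihood, robust) in R 4.3.3, and a gene was called at an adjusted p (Benjamini-Hochberg) below 0.05. Genotype was the only term within a tissue label or kind, genotype was a covariate of tissue label within a kind, and genotype and tissue label were covariates of kind. Alternatives were DESeq2 1.42.0, other scalings, no filter, a fit with replicate number as a block, and fits without each library in turn. Tables and plots used Python 3.11.15, pandas 2.3.3 and matplotlib 3.10.9. The genes, lists and comparisons were chosen with earlier results of these data known. All 9 genes are named, and of each other list the 2 with the highest mean CPM and up to 4 called genes with the smallest p could be named, apart from items not reported here. Similar genes are the 3 with the highest correlation. Alternatives were followed for the 9 genes between the kinds and for the 3 with the smallest p elsewhere, a narrowing made after values were seen.

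On simulated counts with known changes, edgeR found 50% of 2-fold and 93.9% of 4-fold changes between the kinds (15098 genes). For KO against WT it found 15% and 83.8% in globin-rich (11103 genes), 2% and 54.5% in globin-poor (16104 genes), and 0% and 0% under the blood label (14472 genes). Between the kinds 100 tested genes were altered 2-fold and 99 4-fold, while 54.2% of genes were called in the data. The simulated rates may thus not hold for so wide a difference.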

Additional observations from a re-analysis of the deposited data

Results flagged for a closer look

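In each kind of 6 libraries, each gene was checked for a highest or lowest library that stood apart from the rest by the Dixon test at the 95% level, and 2 of 18 such checks found one. Chance finds about 1 in 20. Cd14 in globin-rich libraries was highest in spleen KO 03 at 12.98 CPM, against 1.31 to 5.49 CPM in the other 5. Nr4a1 in globin-poor libraries was highest in spleen WT 01 at 132 CPM, against 41.2 to 68.1 CPM in the other 5. The check used CPM without globin only. In TMM-scaled CPM these libraries stood less far apart. Cd14 was at 16.3 CPM against 2.18 to 8.42, and Nr4a1 at 88.0 CPM against 31.6 to 58.0. The check was not run on that scale.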

How the results depend on the processing

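Of 165 values of the 9 genes under other settings 152, and of 252 with 1 library left out 244, kept their direction and side of the threshold. Outside the comparison of the kinds no member was called in the main fits, so keeping that side of the threshold says little there. Between the kinds of library, Ccr2 (3.28 to 3.67 with any library left out), Ace (2.60 to 2.93), and Cx3cr1 (1.02 to 1.29) were called in every leave-one-out fit. Cd14 ranged from -1.67 to -0.97 and Nr4a1 from 0.26 to 0.64. With library size without globin in place of TMM, Ly6c2 (-0.35), Csf1r (-0.89), Nr4a1 (-0.72), Treml4 (-0.44) and Fcgr4 (-0.81) turned negative. That scaling moves the median of all genes to -1.21. Csf1r was also negative with no low-count filter (-0.088) and in blood-labelled globin-rich against spleen-labelled globin-poor libraries (-0.15). The mean was higher in globin-rich libraries for 3 of the 9 genes in CPM without globin and for 7 in TMM-scaled CPM. Between genotypes in globin-rich libraries, leaving out 1 library each gave ranges of -0.066 to 0.51 for Fcgr4, -0.15 to 0.41 for Ace and -0.35 to 0.0088 for Treml4. Between the labels in globin-rich libraries the Ccr2 range was -0.83 to 0.22, positive without spleen KO 03. The cause of these changes was not tested.

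Counts of called genes moved more. With no low-count filter they were 121 for KO against WT in globin-rich libraries, 98 for the difference in KO effect, 14140 between the kinds, and 384 and 1391 between the labels in globin-rich and globin-poor libraries. DESeq2 called 31 and 5 genes for KO against WT in globin-rich and globin-poor libraries, 69 for the difference, and 221 and 2829 between the labels. TMM without globin gave 784 between the labels in globin-poor libraries. With 1 library left out the counts were 0 to 483 for KO against WT in globin-rich libraries, 0 to 47 for the difference, 6973 to 8532 between the kinds, and 0 to 144 and 1 to 2349 between the labels in globin-rich and globin-poor libraries.

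Whether WT and KO libraries of the same number within a tissue label pair could not be told. The residuals were taken from group means that mix both kinds, so they carry the kind. Blood 03 and spleen 04, where the number joins libraries of different kinds, had residual correlations of -0.66 and -0.73. Blood 04 and spleen 01, of 1 kind each, had 0.82 and 0.63. With the replicate block edgeR called 0 genes in blood and 0 in spleen, and Cd14 in blood stood at -1.997. WT 01, WT 04, KO 03 and KO 04 each occur under both the blood and the spleen label. The labels do not say whether these came from the same mouse. That pairing was not checked, and no fit took it into account. Counting error limits Cd14 most, with 7 to 71 counts in globin-rich libraries.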
